A study of Danio rerio with 18 samples.

Results

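The genes described here are the corticosteroid receptors nr3c1 and nr3c2 and 7 genes of the glucocorticoid pathway, fkbp5, tsc22d3, klf9, zbtb16a, hsd11b2, sgk1 and cebpd, in the adult zebrafish ventricle. They were chosen by name, with earlier results of these data known, as 9 of the 25107 genes of the deposited count table. All 9 passed the filter on low counts. The gene lists used further on were chosen in the same way. Counts and medians of these sets beside all genes therefore describe the sets and do not test them. Poly(A) RNA was sequenced from 18 libraries, each pooled from 2 to 3 ventricles, in 6 groups of 3. All fish were homozygous for the floxed allele tcf21vln18 and carried Tg(ubbR:CreERT2*)vln2, a tamoxifen-inducible Cre driven by a ubiquitin promoter and so not limited to the epicardium, and the red fluorescent reporter TgBAC(tcf21:DsRed2)pd37. The conditional knock-out arm (cKO) is labelled with 5 µM 4-hydroxytamoxifen, given as 3 baths of 24 h, and the control arm with no drug, so that the drug and the deletion cannot be told apart. Each arm was sampled uninjured at day 0, which was 12 days after the first bath, and at 3 days after either a sham procedure, in which the heart was only exposed, or a cryoinjury made with a cooled probe. The labels give no age beyond adult and do not name separate fish behind the replicate numbers, so the p-values measure the spread between these libraries.

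Cortisol is the main glucocorticoid of fish. Bound by hormone, the glucocorticoid receptor leaves a complex of chaperones, enters the nucleus and switches target genes on or off, and several of these targets feed back on the pathway. In the heart of mammals the receptor acts in cardiomyocytes and in other cell types, and its best known targets, among them FKBP5, TSC22D3, KLF9, ZBTB16 and PER1, are widely used as readouts of glucocorticoid exposure. Cortisol itself was not measured in these samples.

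The targeted gene, tcf21, ranged from 6.28 to 18.9 CPM (counts scaled to a common library size) in the control libraries and from 0.411 to 0.910 CPM in the cKO libraries. Every library thus matched the arm in its label, and the condition was not checked by this gene. Totals ranged from 107256750 to 191085931 estimated counts per library, and the lowest count of any of the 9 genes in a library was 147, for nr3c2. Heart muscle markers were abundant throughout (myl7, cmlc1, tnnt2a and tnni1b summed to 13890 to 39360 CPM). Sequencing lane differed between groups: the 3 uninjured control libraries and sham control replicates 1 and 2 came from lane 2, and the other 13 libraries from lane 4. The uninjured cKO and control groups therefore cannot be told apart from the lanes, whereas the cryoinjured groups of both arms, and all 3 cKO groups, lie within lane 4. In these bulk samples fewer cells of a type and less RNA per cell cannot be told apart.

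Compared per transcript length, in TPM (transcript abundance scaled to a common total), the enzyme gene hsd11b2 and the targets cebpd and fkbp5 were the most abundant of the 9, with median levels over 18 libraries of 410 TPM (165 to 1002), 316 TPM (48.1 to 637) and 266 TPM (3.07 to 1162). Tsc22d3 followed with a median of 122 TPM. The TPM medians of klf9, nr3c1 and sgk1 lay together at 24.5, 23.2 and 23.0, zbtb16a had 9.38 and nr3c2 was the lowest at 1.55. The ranges of every pair of neighbours in this order overlapped. A single annotated transcript carried tsc22d3, klf9, hsd11b2 and cebpd, and 1 transcript carried a median of 99.08% of the TPM of nr3c1 and 99.12% of that of fkbp5. Zbtb16a was less uniform: the transcript that carried a median of 89.33% of its TPM was listed at 0 TPM in sham cKO replicate 1 and carried 1.11% in uninjured cKO replicate 3, the libraries with the lowest zbtb16a levels.

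On the GRCz11 assembly of the deposited files, nr3c1 lies at chr14:23746710-23801389 and nr3c2 at chr1:36935154-37087966, both on the minus strand. The remaining genes lie at chr6:41096058-41117242 (fkbp5), chr14:27998756-28001986 (tsc22d3), chr5:26075230-26078165 (klf9), chr21:23159385-23331619 (zbtb16a), chr7:35112052-35126374 (hsd11b2), chr23:31640239-31693309 (sgk1) and chr24:35564668-35565927 (cebpd). Sgk1 is a neighbour of the deleted gene on chromosome 23, with 84542 bases between it and tcf21. Tsc22d3 overlaps ENSDARG00000105498, a gene on the same strand, so the counting could have divided reads between these genes.

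**Figure D1:**
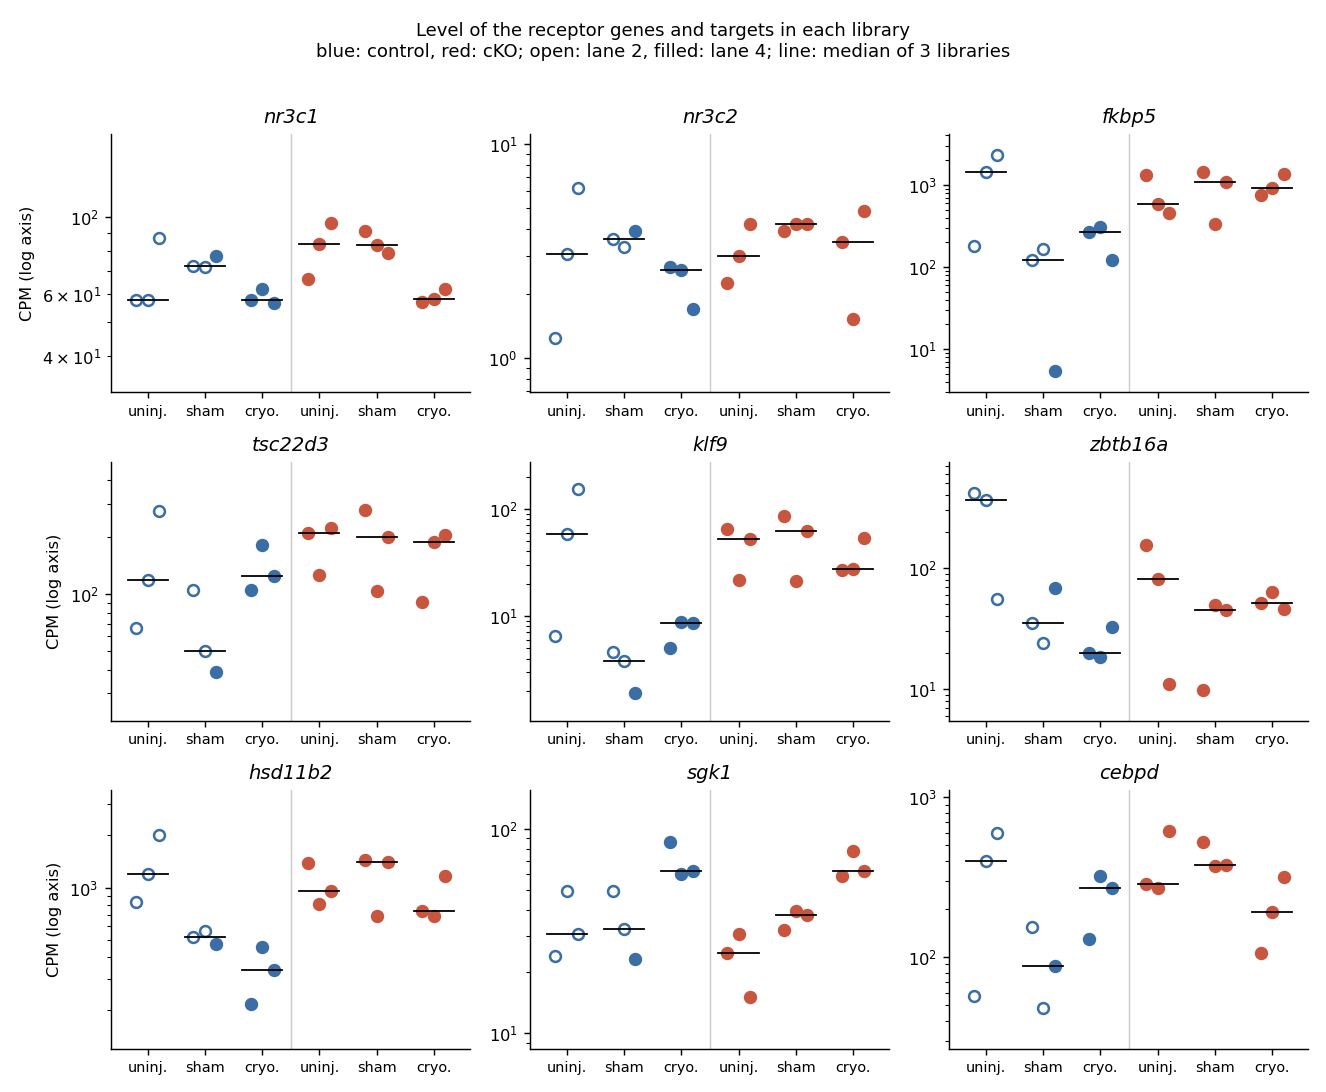
Level of each of the 9 genes in every library, in CPM on a log axis whose range differs between panels. The control arm is blue and the cKO arm red, the operated hearts were taken at 3 days, each point is a library, open points are lane 2, filled points lane 4, and lines are group medians. The klf9 and fkbp5 panels show the sham and cryoinjured control libraries below all sham and cryoinjured cKO libraries, with uninjured control libraries spread from 6.51 to 152 CPM for klf9 and from 181 to 2341 CPM for fkbp5.

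Nr3c1, which encodes the glucocorticoid receptor, was the steadiest of the genes. Its levels in control ventricles were 57.8, 57.7 and 86.9 CPM uninjured, 72.4, 72.0 and 77.4 CPM after sham, and 57.9, 62.0 and 56.7 CPM after cryoinjury. In cKO ventricles they were 66.5, 83.4 and 96.0 CPM uninjured, 91.0, 82.9 and 78.9 CPM after sham, and 57.2, 58.1 and 62.3 CPM after cryoinjury. Cryoinjured libraries of both arms lay below every sham library, and in the cKO arm also below every uninjured library. None of these differences passed the test: the log2 fold change from uninjured to cryoinjured was -0.47 (SE 0.16, adjusted p = 0.0706) in cKO and -0.20 (SE 0.16, adjusted p = 0.420) in control, by edgeR's quasi-likelihood test with Benjamini-Hochberg adjustment. Between the arms the log2 fold change (cKO minus control) was 0.28 uninjured, 0.19 after sham and 0.01 after cryoinjury, each with an SE of 0.16. The cKO decrease in cryoinjured against uninjured hearts was called in a fit of lane 4 libraries alone, in DESeq2's Wald test and in the fits without uninjured cKO replicate 1 (adjusted p = 0.0292) or uninjured control replicate 3 (adjusted p = 0.0232). Without the latter, nr3c1 was also called in cryoinjured against sham cKO (adjusted p = 0.0487). That contrast was called too without the 6 uninjured libraries (adjusted p = 0.00725) and with only the groups compared. Those 2 fits called 1721 and 1671 genes in all, beside 298 in the main fit.

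Nr3c2, which encodes the mineralocorticoid receptor, a further receptor for cortisol in fish, was present at low levels. In control it had 1.25, 3.05 and 6.22 CPM uninjured, 3.59, 3.30 and 3.94 CPM after sham, and 2.68, 2.58 and 1.69 CPM after cryoinjury. In cKO it had 2.25, 3.00 and 4.23 CPM uninjured, 3.92, 4.24 and 4.24 CPM after sham, and 3.49, 1.53 and 4.86 CPM after cryoinjury. Uninjured control libraries spanned all other groups, and no comparison of nr3c2 passed the test.

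Fkbp5 encodes a co-chaperone that lowers the hormone affinity of the receptor complex and is itself induced by the receptor, a short feedback loop. Its levels in control ventricles were 181, 1428 and 2341 CPM uninjured, 121, 166 and 5.37 CPM after sham, and 269, 303 and 120.3 CPM after cryoinjury. Ventricles of the cKO arm had 1327, 592 and 460.4 CPM uninjured, 1435, 335 and 1080.1 CPM after sham, and 747, 908 and 1362 CPM after cryoinjury. Uninjured control replicates 2 and 3 were high and replicate 1 was low, all sham and cryoinjured control libraries were low, and all 9 cKO libraries lay above every sham and cryoinjured control library. In control hearts fkbp5 fell 13.5-fold from uninjured to sham (log2 fold change -3.76, SE 1.03, adjusted p = 0.0369, edgeR's quasi-likelihood test). This call was lost without any one of uninjured control replicates 2 and 3 and sham control replicates 1, 2 and 3 (adjusted p up to 0.117), and the fold change was -3.04 without uninjured control replicate 3 and -4.38 without sham control replicate 2. It was also lost without any of 6 libraries of the other groups (adjusted p from 0.0533 to 0.0581), so it stood at the edge of the threshold. With the replicate number as a block the value was -3.92 (adjusted p = 0.0620), not called. The level after cryoinjury was not called against uninjured control (log2 fold change -2.51, SE 0.97, adjusted p = 0.0753), but was without uninjured control replicate 1 (adjusted p = 0.0349) or sham control replicate 3. DESeq2's Wald test also called it (adjusted p = 0.00381). In the cKO arm the same contrasts gave 0.26 (SE 0.92) for sham and 0.34 (SE 0.92) for cryoinjury.

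Hsd11b2 encodes the 11-beta-hydroxysteroid dehydrogenase that converts cortisol to inactive cortisone inside cells. The control levels were 829, 1200.3 and 2007 CPM uninjured, 521, 566 and 476 CPM after sham, and 215, 455 and 339 CPM after cryoinjury. In the cKO arm they were 1392, 811 and 955 CPM uninjured, 1433, 689.8 and 1393 CPM after sham, and 738, 687 and 1169.8 CPM after cryoinjury. Control groups formed 3 steps that did not overlap, uninjured above sham above cryoinjured, while the 3 cKO groups overlapped each other and lay above every sham and cryoinjured control library. In control hearts hsd11b2 fell 2.58-fold from uninjured to sham (log2 fold change -1.37, SE 0.36, adjusted p = 0.0280, edgeR's quasi-likelihood test). It fell 4.00-fold from uninjured to cryoinjured (log2 fold change -2.00, SE 0.36, adjusted p = 0.000906, same test). The step from sham to cryoinjured control was not called (log2 fold change -0.63, SE 0.35, adjusted p = 0.398, same test). The call after cryoinjury held without each of the 18 libraries, whereas the call after sham was lost without uninjured control replicate 2 or 3 or any 1 of the sham control libraries (adjusted p up to 0.0965). The corresponding log2 fold changes in cKO hearts were 0.15 (SE 0.35) after sham and -0.28 (SE 0.35) after cryoinjury, and neither was called.

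Klf9, a Krüppel-like transcription factor that the receptor induces in fish as in mammals, had the steepest pattern. Control levels were 6.51, 58.5 and 152 CPM uninjured, 4.57, 3.78 and 1.90 CPM after sham, and 4.96, 8.73 and 8.49 CPM after cryoinjury. Levels in cKO ventricles were 64.4, 21.7 and 52.5 CPM uninjured, 86.3, 21.4 and 61.9 CPM after sham, and 27.0, 27.4 and 53.3 CPM after cryoinjury. Every cKO library exceeded every sham and cryoinjured control library, and uninjured control replicate 1 was as low as the operated control hearts. The share of all genes with the former separation, also seen for fkbp5 and hsd11b2, was not computed. From uninjured to sham control, klf9 fell 21.2-fold (log2 fold change -4.41, SE 0.87, adjusted p = 0.00685, edgeR's quasi-likelihood test). This was called without each of the 18 libraries in turn, with a log2 fold change of -3.25 without uninjured control replicate 3. From uninjured to cryoinjured control it fell 9.80-fold (log2 fold change -3.29, SE 0.82, adjusted p = 0.00863, same test), although the groups overlapped through uninjured control replicate 1. That call was lost without uninjured control replicate 3 (log2 fold change -2.14, adjusted p = 0.0563) and without cryoinjured control replicate 1 (adjusted p = 0.0534). In cKO hearts the log2 fold change was 0.29 (SE 0.75) after sham and -0.36 (SE 0.75) after cryoinjury.

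Tsc22d3 (GILZ) encodes a leucine zipper protein that restrains inflammatory transcription factors. Its control levels were 66.7, 119.5 and 275 CPM uninjured, 106, 50.1 and 38.8 CPM after sham, and 105, 183 and 124 CPM after cryoinjury. Levels in cKO were 209.8, 126 and 223 CPM uninjured, 278, 104 and 201 CPM after sham, and 90.9, 188 and 205 CPM after cryoinjury. Groups overlapped in every comparison, sham control being the lowest by its median, and no comparison passed the test. The log2 fold change from uninjured to sham control was -1.25 (SE 0.51, adjusted p = 0.161, edgeR's quasi-likelihood test).

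Cebpd encodes a transcription factor of the C/EBP family that responds to both glucocorticoids and inflammatory signals. Control levels of cebpd were 57.1, 402 and 602 CPM uninjured, 155, 48.1 and 87.9 CPM after sham, and 130.3, 319.8 and 272 CPM after cryoinjury. Ventricles of the cKO arm gave 287, 269 and 616 CPM uninjured, 524, 372 and 375 CPM after sham, and 106, 192 and 316 CPM after cryoinjury. As for klf9 and fkbp5, uninjured control replicate 1 was far below its group, and the sham groups of the arms did not overlap. No comparison of cebpd passed the test, and the log2 fold change from uninjured to sham control was -1.87 (SE 0.67, adjusted p = 0.104, edgeR's quasi-likelihood test). Without uninjured control replicate 1 that contrast was called (adjusted p = 0.0162), and DESeq2's Wald test called it with all libraries.

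Zbtb16a encodes a zinc finger transcription factor (PLZF in mammals) that is a strong glucocorticoid target in several human cell types. Its highest levels were in uninjured control replicates 1 and 2. The control arm had 418, 367 and 55.7 CPM uninjured, 35.4, 24.2 and 67.8 CPM after sham, and 19.7, 18.4 and 32.4 CPM after cryoinjury. In cKO zbtb16a had 155, 81.4 and 11.0 CPM uninjured, 9.89, 49.1 and 45.2 CPM after sham, and 51.1, 63.1 and 45.7 CPM after cryoinjury. Replicate 3 of either uninjured group was well below its partners, and all cryoinjured cKO libraries exceeded all cryoinjured control libraries. Zbtb16a fell 11.9-fold from uninjured to cryoinjured control (log2 fold change -3.57, SE 0.87, adjusted p = 0.00755, edgeR's quasi-likelihood test) and remained called without each of the 18 libraries. From uninjured to sham control it did not pass (log2 fold change -2.72, SE 0.84, adjusted p = 0.0612), except without uninjured replicate 3 of the control arm (adjusted p = 0.0239) or of the cKO arm (adjusted p = 0.0313). DESeq2's Wald test also called this contrast (adjusted p = 0.0114). In cKO hearts the fold changes were -1.25 (SE 0.80) for sham and -0.63 (SE 0.79) for cryoinjury on the log2 scale.

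Sgk1 is a serum- and glucocorticoid-regulated kinase that controls ion channels and transporters. It was the only gene of the 9 called in both arms, and it was higher after cryoinjury. The share of all genes called in both arms was not computed. Levels in control ventricles were 23.8, 49.7 and 30.7 CPM uninjured, 49.9, 32.5 and 23.2 CPM after sham, and 86.0, 60.0 and 62.4 CPM after cryoinjury. Levels in cKO ventricles were 24.8, 30.5 and 15.1 CPM uninjured, 32.0, 39.7 and 37.9 CPM after sham, and 59.1, 77.7 and 62.2 CPM after cryoinjury. All 6 cryoinjured libraries lay above all 12 others, and the arms overlapped within each condition. In cKO the sham libraries also lay above all uninjured libraries, whereas in control these groups overlapped. That cKO difference was not called (log2 fold change 0.64, SE 0.30, adjusted p = 0.466, edgeR's quasi-likelihood test). Sgk1 rose 2.83-fold from uninjured to cryoinjured cKO (log2 fold change 1.50, SE 0.31, adjusted p = 0.00526, edgeR's quasi-likelihood test), a call that held under every alternative run, the largest adjusted p being 0.0294. In control hearts it rose 2.00-fold (log2 fold change 1.00, SE 0.30, adjusted p = 0.0245, same test), which was lost without uninjured control replicate 1, uninjured control replicate 3 or cryoinjured control replicate 1 (adjusted p up to 0.106). The difference between these responses was not called (log2 fold change 0.50, SE 0.43, adjusted p = 0.717). Against sham the cryoinjured level was not called in either arm (log2 fold change 0.98, adjusted p = 0.108 in control and 0.86, adjusted p = 0.169 in cKO, SE 0.30 each). Without the 6 uninjured libraries sgk1 was called in both arms (adjusted p = 0.0201 in control, same test), among 2100 genes in control and 1721 in cKO, beside 280 and 298 in the main fit. DESeq2's Wald test called it in control, and the fit of only the groups compared called it in cKO (adjusted p = 0.0121).

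Counted by comparison, all called changes of the 9 genes were between conditions. Comparisons between arms called 0.00489% to 0.518% of all genes, so few calls of any gene were made there and these counts do not locate the changes. In control hearts 3 of the 9 genes fell from uninjured to sham (fkbp5, klf9 and hsd11b2) and none rose. Of the 20462 genes tested 7.63% were called, 2.82% as lower and 4.81% as higher. Fkbp5, klf9 and hsd11b2 varied together within groups (r from 0.575 to 0.836), so they do not count as separate observations. From uninjured to cryoinjured control, 3 fell (klf9, hsd11b2 and zbtb16a) and 1 rose (sgk1), beside 23.7% of all genes, 10.6% as lower and 13.1% as higher. In cKO hearts sgk1 alone was called from uninjured to cryoinjured, beside 10.6% of all genes. None was called from uninjured to sham cKO, where 1.05% of all genes were called and 1 of the 9 had an unadjusted p under 0.05, beside 10.7% of all genes. DESeq2's Wald test also called none there. Between cryoinjury and sham none was called in control, beside 1.37% of all genes, or in cKO, beside 1.46%. DESeq2's Wald test called 1 (sgk1) in control and none in cKO. Unadjusted p-values under 0.05 numbered 1 in control, beside 16.7% of all genes, and 2 in cKO, beside 15.6%. The median log2 fold change of the 9 genes was -1.37 for sham against uninjured control, beside 0.04 over all genes, and 0.16 for the same contrast in cKO, beside 0.02.

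Lane and the levels of cell type markers moved with these control comparisons. All 3 control calls after sham compare lane 2 with a group that held 1 library of lane 4. With that library, sham control replicate 3, left out, klf9 was still called (adjusted p = 0.0375) and fkbp5 (log2 fold change -3.20, adjusted p = 0.0644) and hsd11b2 (log2 fold change -1.31, adjusted p = 0.0965) were not, by edgeR's quasi-likelihood test. Uninjured and cryoinjured control libraries came from different lanes, and with lane as a covariate, whose size then rests on the sham control libraries, none of the 4 was called. Klf9 then had a log2 fold change of -2.16, hsd11b2 -1.81, zbtb16a -4.76 and sgk1 1.83, while fkbp5 turned to 2.23 (adjusted p = 0.410, not called). The 4 heart muscle markers summed to 28850 to 39360 CPM in uninjured control against 22490 to 26800 CPM after sham and 13890 to 18660 CPM after cryoinjury. In cKO the sums were 24120 to 29910, 25970 to 27920 and 20110 to 24190 CPM. Macrophage markers (marco, csf1ra and spi1b) summed to 22.98 to 98.76 CPM in uninjured and 138 to 271.3 CPM in cryoinjured control, and to 42.97 to 141.7 and 158.6 to 207.9 CPM in cKO. Epicardial markers (tcf21, tbx18, wt1b, aldh1a2 and krt4) summed to 124.8 to 141.6 CPM in uninjured, 483.6 to 598.5 CPM in sham and 641.2 to 1062 CPM in cryoinjured control, and to 150.5 to 187.8, 450.1 to 673.2 and 743.7 to 927 CPM in cKO. Endothelial markers (cdh5, kdrl and nfatc1) summed to 454.9 to 576.2, 399.3 to 450.4 and 372.7 to 394.3 CPM in control and to 480.6 to 626.4, 514.5 to 683.2 and 434.5 to 499.4 CPM in cKO. The part of these markers in the changes of the 9 genes was not tested.

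**Figure D2:**
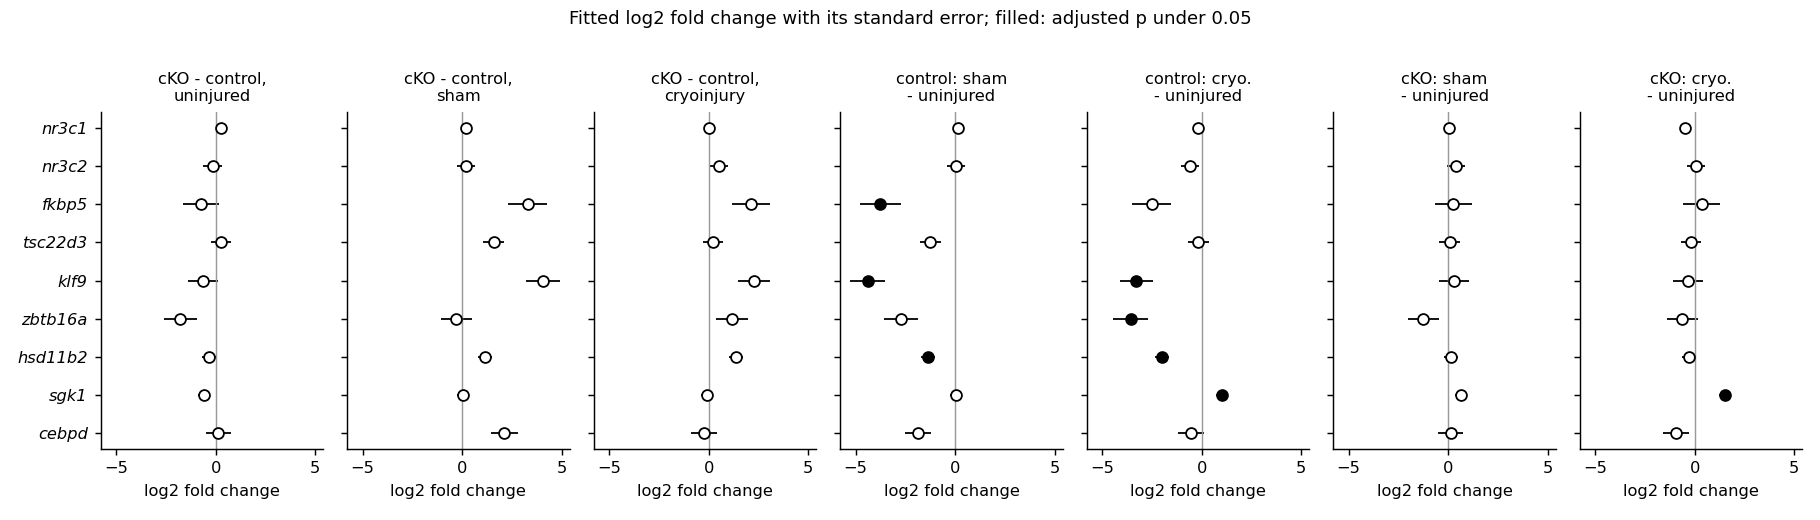
Fitted log2 fold change of each of the 9 genes with its standard error (horizontal bars) in 7 comparisons, the first 3 between the arms and the other 4 between conditions within an arm. Filled points have an adjusted p under 0.05 in edgeR's quasi-likelihood test: 3 in sham against uninjured control, 4 in cryoinjured against uninjured control and 1, sgk1, in cryoinjured against uninjured cKO.

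Between the arms, none of the 9 genes passed the test in any condition, although several lay apart library by library. In sham hearts hsd11b2, nr3c1, fkbp5, klf9 and cebpd were higher in all 3 cKO libraries than in all 3 control libraries. These were 5 of 9, beside 7.86% of all genes, and no gene of the 9 was lower throughout, beside 9.63%. Hsd11b2, fkbp5, klf9 and cebpd varied together within groups (r from 0.386 to 0.836), so they do not count as separate observations. The fitted log2 fold changes (cKO minus control) were 4.05 for klf9 (SE 0.85, adjusted p = 0.182), 3.28 for fkbp5 (SE 1.00, adjusted p = 0.362) and 2.13 for cebpd (SE 0.67, adjusted p = 0.379). They were 1.58 for tsc22d3 (SE 0.52, adjusted p = 0.403) and 1.17 for hsd11b2 (SE 0.36, adjusted p = 0.359), all by edgeR's quasi-likelihood test. Few genes were called here at all, 0.0147% of those tested, and 5 of the 9 had an unadjusted p under 0.05, beside 8.04% of all genes. DESeq2's Wald test called fkbp5 (adjusted p = 0.00395) and klf9 (adjusted p = 0.000500), and edgeR's fit without the 6 uninjured libraries called klf9 (adjusted p = 0.0157), as did the fit without uninjured control replicate 1 (adjusted p = 0.0273). These 3 fits called 174, 155 and 16 genes in all, beside 3 in the main fit. With lane as a covariate none of the 9 was called by edgeR's test, the adjusted p being 0.929 for klf9 and 0.972 for hsd11b2. In lane 4 alone, with sham control replicate 3 as the lone control library and its spread taken from the other groups, the log2 fold changes were 4.89 for klf9, 7.47 for fkbp5 and 1.30 for hsd11b2, none called. Endothelial marker sums of the sham groups did not overlap, 514.5 to 683.2 CPM in cKO against 399.3 to 450.4 CPM in control, and their part in the differences was not tested.

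In cryoinjured hearts both arms were sequenced in lane 4. Hsd11b2, zbtb16a, fkbp5 and klf9 were higher there in all cKO than in all control libraries, 4 of 9 beside 11.3% of all genes. Of these, hsd11b2, fkbp5 and klf9 varied together within groups (r from 0.575 to 0.836), so they do not count as separate observations. Zbtb16a ran against them. The log2 fold changes were 2.28 for klf9 (SE 0.79, adjusted p = 0.478), 2.12 for fkbp5 (SE 0.96, adjusted p = 0.628), 1.36 for hsd11b2 (SE 0.36, adjusted p = 0.335) and 1.18 for zbtb16a (SE 0.80, adjusted p = 0.792), by edgeR's quasi-likelihood test. None was called, beside 0.00489% of all genes, and 3 of the 9 had an unadjusted p under 0.05, beside 7.59% of all genes. The choice of libraries in the fit mattered: with the 6 cryoinjured libraries alone, klf9 (adjusted p = 0.0246), fkbp5 (adjusted p = 0.0404) and zbtb16a (adjusted p = 0.0457) were called at the same fold changes, and DESeq2's Wald test called hsd11b2 (adjusted p = 0.0262). Those fits called 253 and 123 genes in all, beside 1 in the main fit. Sgk1, tsc22d3, cebpd and nr3c1 had log2 fold changes of -0.07 (SE 0.30), 0.23 (SE 0.51), -0.23 (SE 0.64) and 0.01 (SE 0.16). Neither the muscle marker sums of these groups, 20110 to 24190 CPM in cKO against 13890 to 18660 CPM in control, nor the endothelial sums, 434.5 to 499.4 against 372.7 to 394.3 CPM, overlapped, and their part in the differences was not tested.

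In uninjured hearts no gene of the 9 separated the arms, beside 10.4% of all genes that did, and none was called, beside 0.132%. Zbtb16a alone had an unadjusted p under 0.05 (log2 fold change -1.77, SE 0.81, adjusted p = 0.353, edgeR's quasi-likelihood test), beside 13.7% of all genes, and DESeq2's Wald test called none of the 9. For fkbp5 and klf9 the log2 fold changes were -0.73 (SE 0.92) and -0.65 (SE 0.75), with uninjured control libraries on both sides of the cKO libraries. Averaged over the 3 conditions, the log2 fold changes were 1.89 for klf9 (SE 0.45, adjusted p = 0.0681), 1.56 for fkbp5 (SE 0.54, adjusted p = 0.180) and 0.73 for hsd11b2 (SE 0.20, adjusted p = 0.104). None of the 9 was called in that average, beside 0.518% of all genes, with 4 under an unadjusted p of 0.05, beside 15.7% of all genes. DESeq2's Wald test called those 3 genes (klf9 adjusted p = 0.00432, fkbp5 0.0140, hsd11b2 0.0184), among 851 genes in all, beside 106 in the main fit. Omitting a library also moved this result: klf9 was called without uninjured control replicate 3 (adjusted p = 0.0222) or replicate 1, and hsd11b2 without replicate 3 (adjusted p = 0.0286). The fit without replicate 3 called 726 genes in all. With lane as a covariate none of these 3 genes was called by edgeR's test, and 1 gene was called in all. The adjusted p was then 0.724 for klf9, 0.586 for fkbp5 and 0.747 for hsd11b2.

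Whether the response to an operation differed between the arms was tested directly, as the change in cKO minus the change in control. For sham the differences were 4.70 for klf9 (SE 1.12, adjusted p = 0.166), 4.02 for fkbp5 (SE 1.35, adjusted p = 0.368), 1.98 for cebpd (SE 0.92, adjusted p = 0.536) and 1.52 for hsd11b2 (SE 0.50, adjusted p = 0.346) on the log2 scale, by edgeR's quasi-likelihood test. None was called, beside 0.0244% of all genes, and 4 had an unadjusted p under 0.05, beside 9.2% of all genes. DESeq2's Wald test called fkbp5 (adjusted p = 0.0177) and klf9 (adjusted p = 0.00842), among 247 genes in all, beside 5 in the main fit. For cryoinjury they were 2.94 for zbtb16a (SE 1.14, adjusted p = 0.352), 2.93 for klf9 (SE 1.08, adjusted p = 0.339), 2.85 for fkbp5 (SE 1.33, adjusted p = 0.439) and 1.72 for hsd11b2 (SE 0.50, adjusted p = 0.222). Again none was called, beside 0.0244% of all genes, with 4 under an unadjusted p of 0.05, beside 11.2% of all genes. DESeq2's Wald test called hsd11b2 (adjusted p = 0.0403), among 330 genes in all, beside 5 in the main fit. Uninjured control replicate 1 carried weight here: without it klf9's sham difference was called (adjusted p = 0.0212). These contrasts share their control libraries with those above and add no separate evidence, and with lane as a covariate the cryoinjury difference of fkbp5 turned to -1.89 (adjusted p = 0.914).

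Replicates of a group differed more in several of these genes than in most others. The within-group SD of log2 CPM was 1.52 for fkbp5, 1.23 for zbtb16a, 1.17 for klf9 and 0.97 for cebpd, larger than in 99.6%, 99.2%, 99.1% and 98.3% of the 10005 genes that averaged 5 CPM or more. For tsc22d3 it was 0.70 (95.5%), for hsd11b2 0.48 (87.3%) and for sgk1 0.41 (81.2%). The receptor gene nr3c1 was on the other side, with an SD of 0.19 that exceeded 25.4% of genes. Fkbp5 thus spanned from 5.37 to 2341 CPM over the 18 libraries while nr3c1 spanned from 56.7 to 96.0 CPM.

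The replicate differences were shared among part of the genes. After subtracting group means, log2 CPM over the 18 libraries had a Pearson correlation of 0.85 between klf9 and tsc22d3, 0.84 between klf9 and hsd11b2, 0.80 between klf9 and cebpd, 0.78 between tsc22d3 and cebpd, and 0.74 between klf9 and fkbp5. Zbtb16a ran against them, with -0.53 to klf9, -0.56 to tsc22d3 and -0.83 to nr3c1. The correlations of sgk1 ranged from -0.35 with nr3c1 to 0.52 with fkbp5, those with klf9, tsc22d3 and hsd11b2 being 0.16, 0.14 and -0.13. The points share libraries, pooled ventricles and scaling, so these values describe the 18 libraries. The uninjured control group weighed heavily in several of them: replicate 1 was the lowest and replicate 3 the highest of its group for fkbp5, klf9, tsc22d3, hsd11b2 and cebpd, whereas zbtb16a was highest in replicate 1 and lowest in replicate 3. Its deviations ran from -2.57 to 1.98 for klf9, beside -1.18 to 0.83 in the other groups. For cebpd they ran from -2.07 to 1.33, beside -0.85 to 0.83, and for hsd11b2 from -0.60 to 0.67, beside -0.69 to 0.50. Fkbp5 deviated most in sham control replicate 3 (-3.15). Correlations without these libraries were not computed.

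**Figure D3:**
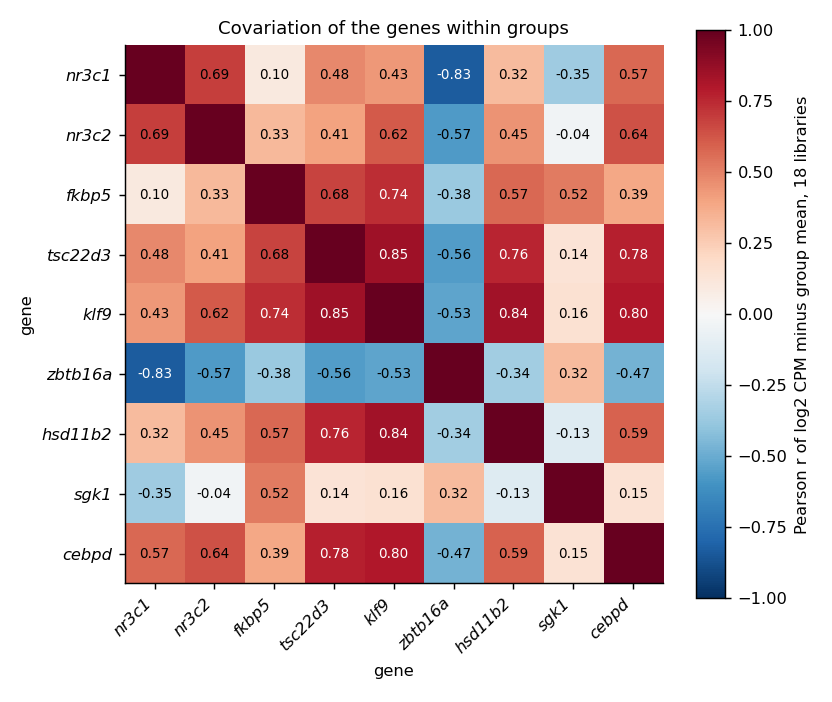
Pearson correlation between each pair of the 9 genes, computed on log2 CPM minus the group mean over 18 libraries, with red for positive and blue for negative values. Klf9, tsc22d3, hsd11b2, cebpd and fkbp5 form a positive block (0.39 to 0.85), zbtb16a is negative to all of these, and sgk1 lies between -0.35 and 0.52.

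Among the 10005 genes of at least 5 CPM, the genes most like fkbp5 by this measure over 18 libraries were mylk4b (r = 0.93), pik3r3a (r = 0.92) and nr4a1 (r = 0.91). Those most like tsc22d3 were nfkbiab (r = 0.95), sox11b (r = 0.94) and dusp1 (r = 0.91), of which nfkbiab, an inhibitor of NF-kappa-B, and dusp1, a phosphatase of MAP kinases, are glucocorticoid targets in mammals. Klf9 was most like si:dkey-201c13.2 (r = 0.98), sertad2b (r = 0.94) and arl5c (r = 0.93). The annotation places si:dkey-201c13.2 at chr5:26079178-26083142 on the same strand as klf9 with 1012 bases between them, and whether it is transcribed separately was not tested.

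The rest of the pathway was described through lists of receptor partners, of further targets known mainly from mammals and of enzymes of cortisol metabolism. Of 15 listed chaperones and cofactors of the receptor, 12 were in the table and all 12 were tested. In control hearts 7 fell from uninjured to cryoinjured and none rose, beside 10.6% and 13.1% of all genes. In cKO hearts 4 fell, beside 3.69% of all genes, and none rose, beside 6.92%. Ncor1, a corepressor of nuclear receptors, had 315, 331 and 567 CPM in uninjured, 347, 307 and 330.3 CPM in sham and 190.2, 179 and 183 CPM in cryoinjured control. In cKO ncor1 had 382, 365 and 487 CPM uninjured, 343, 307 and 433 CPM after sham, and 194, 189 and 205 CPM after cryoinjury. Cryoinjured libraries of both arms thus lay below all others. On the log2 scale ncor1 fell by 1.14 in control (SE 0.20, adjusted p = 0.000649) and fell by 1.07 in cKO (SE 0.20, adjusted p = 0.00280), and was also called against sham in both arms (adjusted p = 0.0469 and 0.0378, edgeR's quasi-likelihood test). The calls of ncor1 against uninjured held without each library, whereas those against sham were lost in most such fits (adjusted p up to 0.147 and 0.184). With lane as a covariate the cKO call against uninjured held and the other calls of ncor1 were lost.

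Further receptor partners went the same way after cryoinjury. The corepressor gene nrip1b fell by 1.85 (SE 0.20, adjusted p = 1.52e-05) in control and fell by 0.96 (SE 0.20, adjusted p = 0.00587) in cKO on the log2 scale, by edgeR's quasi-likelihood test. It was also the 1 gene of these 12 called after sham in control, beside 7.63% of all genes, and fell there by 1.33 (SE 0.20, adjusted p = 0.000803). Its paralog nrip1a fell by 0.80 (adjusted p = 0.0185) in control and by 1.17 (adjusted p = 0.00434) in cKO, by the same test. The coactivator gene ncoa1 fell by 0.95 (adjusted p = 0.0101) in control. Ncoa3 fell by 0.45 (adjusted p = 0.0206) in control and by 0.60 (adjusted p = 0.00834) in cKO. The control calls of nrip1a, ncoa1 and ncoa3 were lost with lane as a covariate and with only the groups compared. They held in 16, 16 and 15 of the 18 fits that leave out a library. The cKO calls of nrip1a and ncoa3 held under every alternative run. The list's median log2 fold change was -0.49 in cryoinjured against uninjured control and -0.28 in cKO, beside 0.02 and 0.03 over all genes. Against sham, cryoinjured cKO hearts were lower in ncoa3 as well, which fell by 0.79 (SE 0.13, adjusted p = 0.0110). That call held in 14 of the 18 fits that leave out a library. None of the 12 was called between the arms in any condition, with 4, 2 and 1 of them under an unadjusted p of 0.05 in uninjured, sham and cryoinjured hearts. The share of all genes under that threshold was 13.7%, 8.04% and 7.59%.

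Of 32 further targets, 28 were in the table and all were tested. From uninjured to sham control 6 fell and 1 rose, beside 2.82% and 4.81% of all genes, and from uninjured to cryoinjured control 10 fell and 4 rose, beside 10.6% and 13.1%. In cKO 1 fell and 1 rose after sham, beside 0.112% and 0.933% of all genes, and 2 fell and 3 rose after cryoinjury, beside 3.69% and 6.92%. The median log2 fold change of the 28 was -0.88 after sham and -0.54 after cryoinjury in control, beside 0.04 and 0.02 over all genes, and 0.15 and 0.05 in cKO. Irs2b, an adaptor of the insulin receptor, had 50.5, 320.1 and 789 CPM in uninjured, 28.8, 32.5 and 40.8 CPM in sham and 48.0, 50.4 and 53.6 CPM in cryoinjured control. In cKO it had 399.9, 148 and 220.2 CPM uninjured, 575, 129.7 and 445 CPM after sham, and 207, 214 and 382 CPM after cryoinjury. As for klf9 and fkbp5, every cKO library lay above every operated control library, and uninjured control replicate 1 was low. How many of all genes separated in this way was not computed. Irs2b fell by 3.51 (SE 0.74, adjusted p = 0.00997) after sham and fell by 2.93 (SE 0.72, adjusted p = 0.00808) after cryoinjury in control on the log2 scale, by edgeR's quasi-likelihood test. The former call was lost without sham control replicate 1 (adjusted p = 0.0555) and the latter without uninjured control replicate 3 (adjusted p = 0.0552). Both were lost with only the groups compared, and the call after cryoinjury also with lane as a covariate. Its difference between the arms was 3.49 after sham (SE 0.74, adjusted p = 0.182) and 2.40 after cryoinjury (SE 0.71, adjusted p = 0.426), neither called.

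Glutamine synthetase genes were also lower after sham in control: glula fell by 2.58 (SE 0.68, adjusted p = 0.0299) and glulb fell by 2.01 (SE 0.55, adjusted p = 0.0363) on the log2 scale (edgeR's quasi-likelihood test). Both calls were lost without uninjured control replicate 3 or any 1 of the sham control libraries (adjusted p up to 0.136 and 0.134). The call of glula held in 14 of the 18 fits that leave out a library, and that of glulb in 7. Both were lost with lane as a covariate and with only the groups compared, and that of glulb also without the filter on low counts. Pdk4, a kinase that limits glucose oxidation, fell by 2.51 (SE 0.43, adjusted p = 0.000621) after cryoinjury in control. This call held without each library but was lost with lane as a covariate. Zbtb16b, the paralog of zbtb16a, was called in both arms: it fell by 1.82 (SE 0.36, adjusted p = 0.00700) in control and fell by 2.44 (SE 0.37, adjusted p = 0.00301) in cKO after sham. After cryoinjury zbtb16b fell by 2.27 (SE 0.37, adjusted p = 0.000406) in control and fell by 1.58 (SE 0.36, adjusted p = 0.0109) in cKO. The list's called increases after cryoinjury included the C/EBP factor genes cebpb, which rose by 2.22 (SE 0.49, adjusted p = 0.00418) in control, and cebpa. Cebpa rose by 1.73 (SE 0.43, adjusted p = 0.00803, same test) in control and by 1.38 (SE 0.42, adjusted p = 0.0486) in cKO. The control calls of cebpa and cebpb held without each library but were lost with lane as a covariate. That of cebpa was also lost with only the groups compared. The cKO call of cebpa held in 2 of the 18 fits that leave out a library (adjusted p up to 0.149).

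The period gene per1a, a part of the circadian clock, was the 1 further target called between the arms, and only in the average over conditions. It had 3.02, 3.71 and 5.60 CPM in uninjured, 6.25, 10.4 and 9.58 CPM in sham and 5.83, 10.5 and 7.97 CPM in cryoinjured control. In cKO it had 12.6, 2.79 and 2.34 CPM uninjured, 34.4, 54.1 and 66.8 CPM after sham, and 30.5, 44.8 and 43.4 CPM after cryoinjury. All operated cKO libraries were above all control libraries, while the uninjured groups overlapped. Per1a was higher in cKO by a log2 fold change of 1.79 averaged over conditions (SE 0.29, adjusted p = 0.0245, edgeR's quasi-likelihood test). That call was lost with lane as a covariate (log2 fold change 1.68, adjusted p = 0.723), where tcf21 was the 1 gene of all those tested that was called. It was also lost without cryoinjured replicate 3 of the cKO arm (adjusted p = 0.066) or of the control arm (adjusted p = 0.0628), and held under the other alternatives. The labels give neither the hour at which hearts were collected nor how the fish were handled before, so the groups cannot be compared on them, and their part in the levels of per1a and of the glucocorticoid targets was not tested. In cKO hearts per1a rose by 3.13 (SE 0.54, adjusted p = 0.00859) after sham and by 2.75 (SE 0.53, adjusted p = 0.00416) after cryoinjury, and per1b rose by 1.87 (SE 0.55, adjusted p = 0.0423) after cryoinjury. Per1b's call was lost in 14 of the 18 fits that leave out a library (adjusted p up to 0.12). The median log2 fold change of the 28 targets between the arms was -0.18 in uninjured, 0.67 in sham and 0.47 in cryoinjured hearts, beside 0.00, 0.00 and -0.01 over all genes. None was called in these single conditions (2, 8 and 5 of 28 had an unadjusted p under 0.05, beside 13.7%, 8.04% and 7.59% of all genes).

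**Figure D4:**
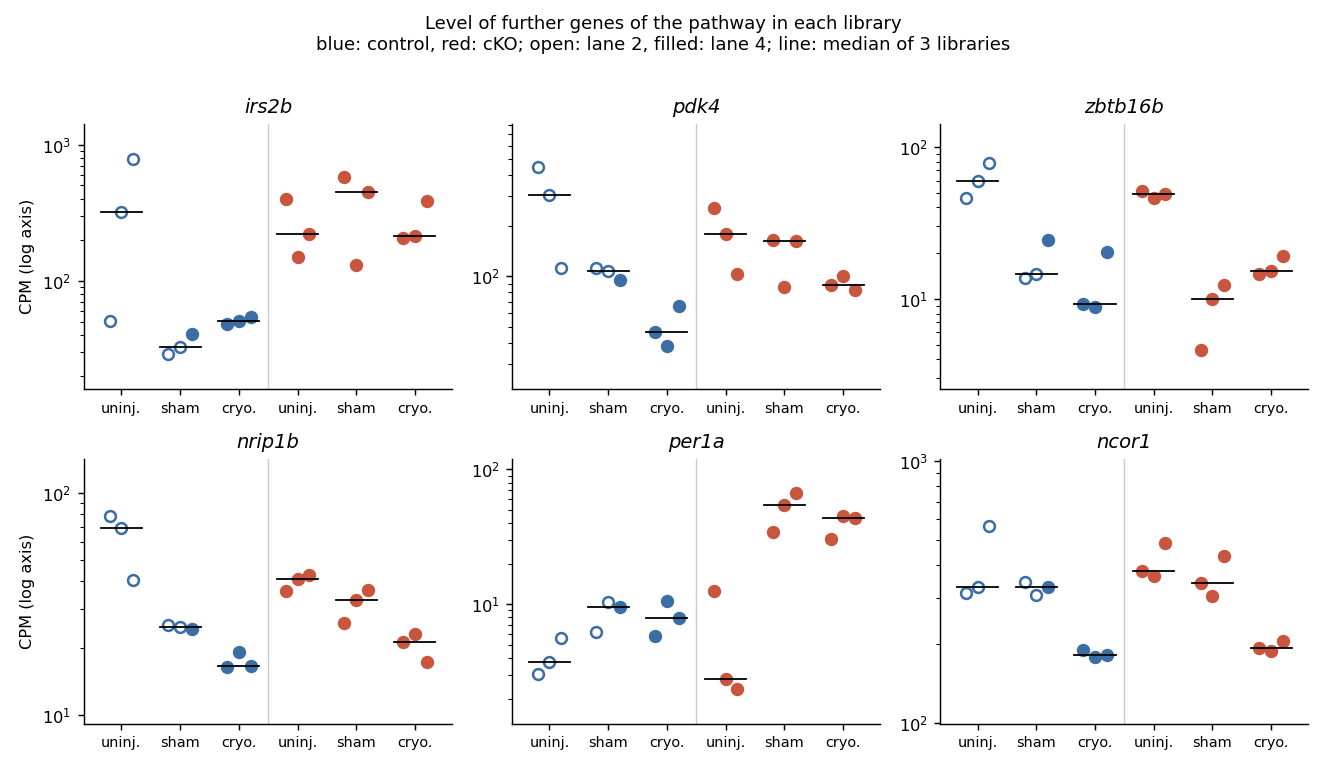
Level of 6 further genes of the pathway in every library, in CPM on a log axis, drawn as in the plot of the 9 genes (control blue, cKO red, open points lane 2, filled points lane 4, lines group medians). Irs2b separates operated control hearts (28.8 to 53.6 CPM) from all cKO hearts (129.7 to 575 CPM), per1a is highest in operated cKO hearts (30.5 to 66.8 CPM), and ncor1 is lowest in cryoinjured hearts of both arms (179 to 205 CPM).

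Among genes of cortisol metabolism other than hsd11b2, those for synthesis had few counts, the highest being 214 for cyp17a1 in a library. Of 13 listed, 10 were in the table and 5 passed the filter, and none was called in any comparison by edgeR's quasi-likelihood test, with at most 3 of the 5 under an unadjusted p of 0.05. These 3 were reached in sham and in cryoinjured against uninjured control, beside 22.2% and 35.1% of all genes. Cyp11c1, the enzyme of the last step of cortisol synthesis, reached at most 56 counts in a library, star at most 24, and the corticotropin receptor gene mc2r had 0 counts in all 18 libraries. Of these 3 genes, markers of the steroid-producing interrenal tissue, only cyp11c1 passed the filter, with at most 0.274 CPM in a library. Hsd11b1la, related to the enzyme that regenerates cortisol in mammals, was present in every library at 7.38 to 12.1 CPM.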

How the data were processed

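Poly(A) RNA was sequenced from 18 ventricle libraries, grouped by the titles and treatments in the labels. The deposited values are estimated counts for each gene that the authors rounded and did not scale for depth. Per the submitters' processing notes, which give no order, FastQC 0.11.9, Trim Galore 0.6.10, HISAT2 2.1.0, StringTie 2.1.1 and GRCz11 were used, and per the file headers the annotation was Ensembl 109. In the deposited library files coverage times transcript length divided by 75 gave the table's values, so 1 count stands for 75 aligned bases and counting intervals are not given. TPM per transcript was taken from the same deposited files, and whether counting used strand is not given in the sources used here. The lane came from read names in the file headers.

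Counts were filtered with filterByExpr by group, leaving 20462 of 25107 genes, and scaled by TMM, and the two-sided quasi-likelihood test of edgeR 4.0.16 (R 4.3.3) was run on a joint model of the 18 libraries that estimates each group mean. P-values were Benjamini-Hochberg adjusted over the tested genes of a comparison, and 0.05 was the threshold for a call. SE was obtained by dividing the size of the log2 fold change by the root of its F statistic. Log2 CPM used a prior count of 2. The test was checked on simulated data, whose results are not given here, so this does not show how it performs on these libraries. Alternatives were DESeq2 1.42.0 (its size factors and its Wald test), no filter, lane as a covariate, a replicate block, fits of only the groups compared, and each library left out. Fits of lane 4 alone and without the 6 uninjured libraries were added after seeing the data.

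Symbols came from supplied tables, and 23499 genes had one; those of the RefSeq assembly GRCz12tu were used for names only. The members and lists were chosen with earlier results of these data known. All 9 members are named in every comparison, and of each list the called genes of at least 5 CPM, up to the 4 largest changes a comparison. Cebpa and ncoa3, named so for cKO, are also given for control, where they were called. Promoter motifs were not analysed here. Same-numbered libraries of uninjured and sham control correlated by over 0.1 in every pair (r from 0.103 to 0.112). This was the 1 of 15 pairs of groups that passed that cutoff, and sham control and uninjured cKO came near it (0.071 to 0.198). The block's values therefore stand beside the first of these comparisons where a call changed.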

Additional observations from a re-analysis of the deposited data

How the results depend on the processing

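For 38 log2 fold changes of 8 of the genes (nr3c2, never called, was not among them), 939 values were recomputed: 866 kept direction and side of the threshold, 34 lost the call, 37 gained one and 2 reversed, both for fkbp5 with lane as a covariate (2.23 for cryoinjured against uninjured control, -1.89 for the difference between the arms in that response). The number of the 9 genes called was 3 for sham against uninjured control and became 5 by DESeq2's Wald test, 1 with lane as a covariate and 0 with only the groups compared. For cryoinjured against uninjured control it was 4 and became 0 with lane and 2 with only the groups compared. For cKO against control, where it was 0, DESeq2's Wald test gave 2 in sham, 1 in cryoinjured and 3 in averaged hearts, 2 for the difference in sham response and 1 for that in cryoinjury response; fits of only the groups compared gave 3 in cryoinjured hearts, and omitting the 6 uninjured libraries gave 1 in sham hearts. Cryoinjury against sham went from 0 to 1 (sgk1) in control by DESeq2's Wald test and to 1 (sgk1) without the uninjured libraries, and in cKO to 2 (nr3c1 and sgk1) both with only the groups compared and without the uninjured libraries. Cryoinjured against uninjured cKO went from 1 to 2 by DESeq2's Wald test and in lane 4 alone. The genes called in all moved too. Between arms DESeq2's Wald test gave 174 in sham, 123 in cryoinjured and 851 in averaged hearts, against 3, 1 and 106 in the main fit. Only the groups compared gave 253 in cryoinjured hearts, and omitting the uninjured libraries gave 155 in sham hearts. Cryoinjured against uninjured control went from 4852 to 662 with lane and 2474 with only the groups compared. The cause of these moves was not tested. With each library left out in turn the counts of the 9 genes ranged from 1 to 4 (sham against uninjured control), 2 to 5 (cryoinjured against uninjured control), 1 to 2 (cryoinjured against uninjured cKO), 0 to 2 (averaged arms) and 0 to 1 (sham arms, cKO cryoinjury against sham, sham response), and were 0 in the other 5 comparisons throughout. Same-numbered libraries correlated by -0.03 to 0.20 in their deviations from group means (median 0.05, 9 of 45 pairs over 0.1). Differently numbered libraries correlated by -0.217 to 0.1 (median -0.022, 0 of 90 pairs over 0.1). Every pair of uninjured and sham control was over 0.1, so single-gene values from the replicate block are given for that comparison alone. The block was fitted over all 18 libraries, and the main test used no pairing. With the block the counts were 2 for sham against uninjured control and 4 for cryoinjured against uninjured control. They were 1 for cryoinjured against uninjured cKO and 0 elsewhere. Over all genes the block called more than the main fit in each comparison. It called 230 between the averaged arms, beside 106. For cryoinjury against sham it called 555 in control and 505 in cKO, beside 280 and 298. Of 1073 values recomputed for the 44 called changes of the pathway lists, 870 kept the call, 203 lost it and none reversed; 17 of the 44 were called without each library, and 28 were lost with lane as a covariate and 21 with only the groups compared. The planned promoter motif search was not run. Depth was at least 107256750 counts per library, and only nr3c2, at most 6.22 CPM, was low in every library. In single libraries klf9 and fkbp5 were low as well, down to 1.90 and 5.37 CPM in sham control replicate 3 (lowest counts 300 and 848).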
